A study of Mus musculus with 2 samples.

Results

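The cytosolic ribosomal protein genes were measured in CD8+CD122+ T cells and set against CD8+CD122- T cells. They were taken as all genes whose array name starts with Rpl or Rps and a digit, or is Rplp0, Rplp1, Rplp2 or Rpsa, without the Rps6 kinases and names marked as pseudogenes. A probe was taken if either array's file names it so. This gave 136 of 41174 probes and 79 of the 21960 genes tested, of which 30 encode proteins of the small (40S) subunit, 42 proteins of the large (60S) subunit, 3 proteins of the P stalk (Rplp0, Rplp1, Rplp2) and 4 are paralogs (Rpl3l, Rpl7l1, Rpl36al, Rps27l). Rpsa matched under its older name Lamr1 alone, which the rule does not take. Spleens of C57BL/6 mice were the source of both sorted populations, whose amplified messenger RNA was put together on each of 2 Agilent arrays that carry both dyes. CD122 is the beta chain of the interleukin 2 and interleukin 15 receptors, and the series calls the CD8+CD122+ cells regulatory. Array 1 (replicate 1) carried CD8+CD122+ RNA in the red dye Cy5 and CD8+CD122- RNA in the green dye Cy3. On array 2 (replicate 2), which the labels call a second trial, the dyes were exchanged. The sources used here do not give the age, sex, number or pooling of the mice. They also leave unsaid whether array 2 had RNA from other mice, so the spread between the arrays may be technical. The number of arrays, n = 2, limits the precision of every value.

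Each ribosome holds ribosomal RNA and about as many kinds of small basic protein as there are genes in this family, in a small subunit that decodes the messenger and a large subunit that joins amino acids. The genes are transcribed strongly in all growing cells, and the messengers of many begin with a run of pyrimidines, the terminal oligopyrimidine tract, through which mTOR signalling and the binding protein Larp1 set how well they are translated. In T cells, activation and cytokines such as interleukin 2 and interleukin 15 are known to raise ribosome production. Messenger levels, which were measured here, therefore cover one of several steps.

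The start sites of some members show the letters for which the family is known, and they are printed because the results below describe the messengers that begin there. RefSeq's table for GRCm38.p6 held 69 starts of 58 members. Each of the following windows is 30 bases long on the gene's strand, with 15 bases before the annotated start and 15 from it on. Capitals mark short pyrimidine motifs, searched on the gene's strand alone, and neighbouring matches may overlap. The motif searched was spelled CTTTC, or with a longer run CTTTT, or with paired letters CTTCC, or as the variants spelled CTCTT and also CCTTT.
Rpl28, chr7:4792950-4792979, plus strand: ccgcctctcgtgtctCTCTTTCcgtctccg
Rps6, chr4:86857353-86857382, minus strand: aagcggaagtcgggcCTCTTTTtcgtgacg
Rpl15, chr14:18270972-18271001, minus strand: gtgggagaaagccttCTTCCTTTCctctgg
Rplp2, chr7:141447636-141447665, plus strand: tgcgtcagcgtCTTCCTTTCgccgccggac
Rps15a, chr7:118116133-118116162, minus strand: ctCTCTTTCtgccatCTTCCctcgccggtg
At least 1 of these letter groups lay in 27 of the 69 windows (39.1%), against 16.4% of all 32851 windows in the table. The windows of Rpl5, Rpl19 and Rpl24 held none of them, which says no more than that these letters are absent there.

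Another run of letters, CGGAAG, is the core bound by ETS-family and related factors in many promoters of housekeeping genes. It or its reverse complement CTTCCG, which can overlap the pyrimidine letters above, was searched from 250 bases before to 50 after each start. It stood in 41 of the 69 member promoters (59.4%) and in 16.9% of all promoters of the same length. The windows below are from 3 members described later, with these letters in capitals.
Rpl24, chr16:55966281-55966310, plus strand: agactgggcgctCGGAAGtgacatcatctc
Rpl39, chrX:37085182-37085211, minus strand: tctaatcgcgttCTTCCGgtcccggccttt
Rps25, chr9:44407630-44407659, plus strand: cacccattgcccCGGAAGtactctctcgag
A match is a description of the letters and not a measured site. Among members measured below the scanner's limit, the median log2 ratio was 0.05 over 16 with the pyrimidine letters and 0.09 over 20 without them, and 0.10 over 22 with CGGAAG and 0.04 over 14 without it.

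The brightest member probes met the upper limit of the scanner, and this comes before any ratio. In Cy5, 28 of the 136 member spots on array 1 (20.6%) and 30 on array 2 (22.1%) were saturated, against 0.101% and 0.106% of all spots that are not controls. Member spots made up 66.7% of all 42 saturated Cy5 spots of array 1 and 68.2% of the 44 of array 2. In Cy3, 4 member spots were saturated on array 1 and 11 on array 2. The mean signals of the saturated Cy5 spots of the members' brightest probes lay between 64479 and 65214 on array 1 and between 64752 and 65173 on array 2, so that genes of different abundance have nearly the same reading there. Taking each gene by its brightest probe, 30 members were saturated in at least 1 of the 4 channels (2 populations on 2 arrays) and 49 in none.

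Between the populations, the ribosomal protein genes that could be read differed little. All ratios here are log2 of CD8+CD122+ over CD8+CD122-. The deposited value table runs the other way. On either array a loess curve was used to take out dye bias at each brightness. The 79 members had a median log2 ratio of 0.05, with 0.06 on array 1 and 0.10 on array 2, against 0.01 over all genes. They ranged from -0.28 for Rpl7l1 to 0.31 for Rps21, and their standard deviation across genes was 0.126, against 0.235 over all genes. A rule of size asked for 0.322 or more on the log2 scale, the same way on each array. Of the members, 0 passed it upwards and 0 downwards, where 1.56% and 1.42% of all genes did. Members saturated in Cy5 on both arrays all had opposite signs there and could not pass. These were 13 in Cy5 alone, 7 also in Cy3 on array 2, and 4 in all channels. They stay among the 79 in each count of this paragraph. Of the 49 members without saturation, 0 passed upwards and 0 downwards, and their standard deviation was 0.126 as well. None of the 79 was 2-fold apart in either direction, which 0.31% of all genes were upwards and 0.105% downwards. The moderated test of limma called 0 members after Benjamini-Hochberg adjustment over all genes (0% of all genes were called), with a lowest adjusted p of 0.656. At an unadjusted limma p under 0.05 it found 7 members, all higher in CD8+CD122+ cells, where 2.87% of all genes were higher and 3.52% lower at that threshold. With 2 arrays, an exact two-sided sign-flip test of 1 value cannot go below p = 0.5.

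As a check of the sort, Il2rb, which encodes CD122, had log2 ratios of 2.60 on array 1 and 2.34 on array 2, far outside the range of the ribosomal protein genes. The CD8 chain genes Cd8a (-0.31 and -0.91) and Cd8b1 (-0.48 and -0.86) were below 0 on both arrays but well above background in both populations. Of 14 tested marker genes of B, CD4 T, NK, myeloid and erythroid cells, 1 passed the rule of size upwards and 0 downwards. Of all genes, 1.56% and 1.42% did. The 1 marker was the myeloid lysozyme gene Lyz2 (0.77 and 0.33). Summed over the 4 tested myeloid markers, the linear intensity was 740.1 in CD8+CD122+ and 628 in CD8+CD122- cells on array 1, and 830 and 742 on array 2. Summed over the 4 B cell markers it was 732 and 773 on array 1 and 595 and 715 on array 2. The 2 tested erythroid markers summed to 1271 in CD8+CD122+ and 1186 in CD8+CD122- cells on array 1 and to 2554 and 2306 on array 2, and both were positive on each array. The 3 NK cell markers summed to 819 and 783 on array 1 and 710.1 and 687 on array 2, and the 1 CD4 T cell marker stood at 95.1 and 89.6 and at 90.1 and 97.7. The part of such cells in the small ratios below was not tested, and in sorted bulk RNA fewer cells of a type and less RNA per cell cannot be told apart. Because each array is normalised to its own probes, a change shared by all transcripts would not show.

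By direction, 27 members had positive values on each array, 5 had negative values on each and 47 were opposite, where 29.2%, 24.1% and 46.8% of all genes were. These counts depend on the dye normalisation. With median centring in place of loess the median stayed above 0 (0.16), but it was 0.69 on array 1 and -0.39 on array 2. Under that setting 10 members were positive and 0 negative on both arrays, and the shares over all genes are not given here. Among the opposite members the order of the signs went with saturation, but opposite signs also occurred without it. Of the 49 members with no saturated channel 21 were opposite, beside the 46.8% of all genes. Of 26 members with a negative value on array 1 and a positive value on array 2, 25 were saturated in at least 1 channel, and of 21 with the reverse pattern 1 was.

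**Figure D1:**
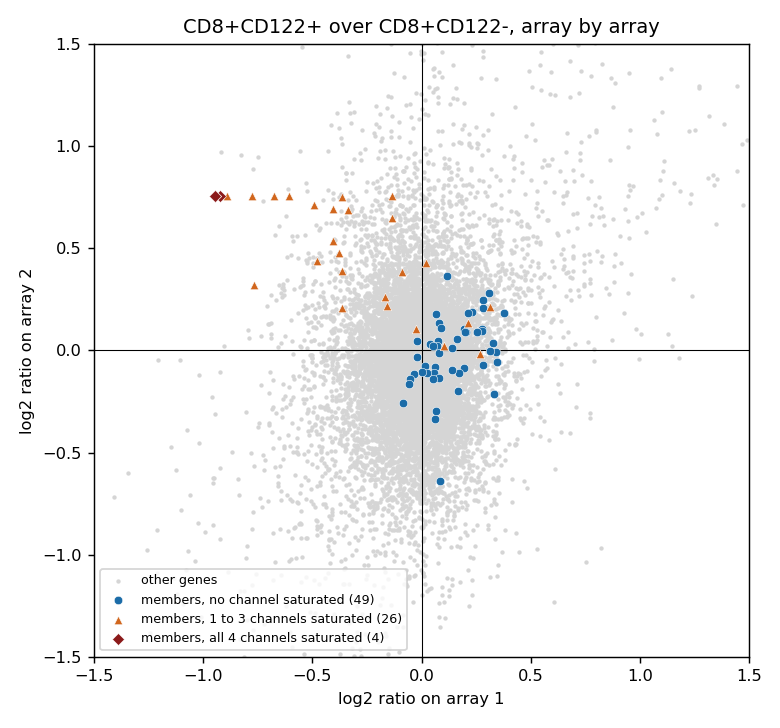
Each point is a gene, with its log2 ratio of CD8+CD122+ over CD8+CD122- on array 1 (horizontal) and array 2 (vertical); grey points are other genes, and 4 members saturated in all channels share nearly the same place at the upper left. The 49 members without saturation lie around 0, while most members with 1 to 3 saturated channels lie in the quadrant of negative values on array 1 and positive values on array 2.

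The pattern was the same seen by dye. As Cy5 over Cy3, the saturated members fell away from 0 on both arrays along a narrow line at the highest brightness, whichever population was in Cy5. The 30 saturated members had medians of -0.37 on array 1 and 0.59 on array 2 in the direction of the populations, and the 49 others 0.12 and -0.0015.

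**Figure D2:**
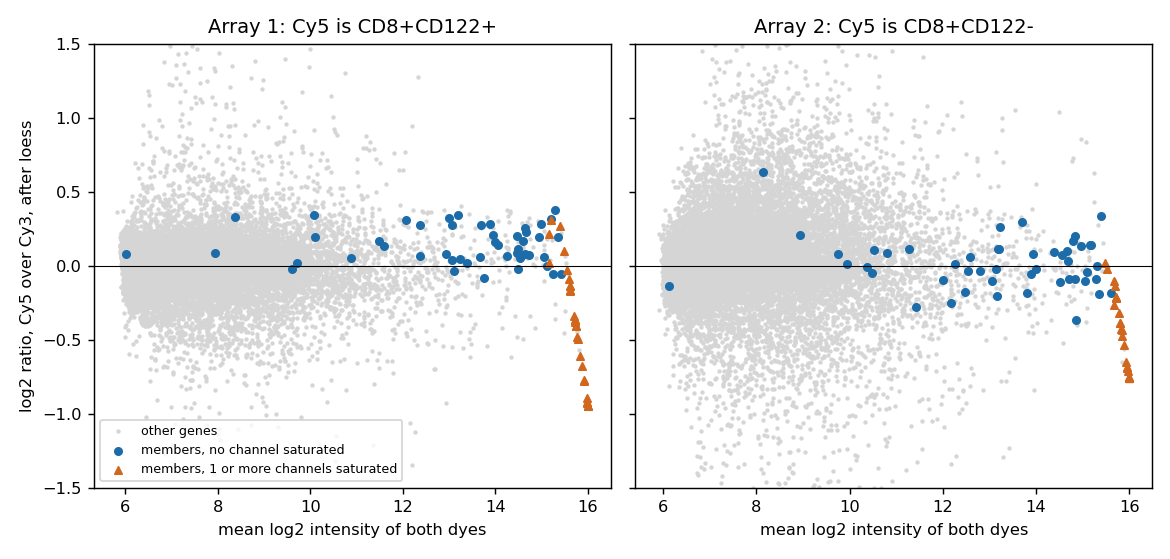
Log2 ratio of Cy5 over Cy3 after loess against the mean log2 intensity of both dyes, for array 1 (Cy5 is CD8+CD122+) and array 2 (Cy5 is CD8+CD122-); grey points are other genes. Members with a saturated channel (triangles) run down a narrow line at the right edge of both panels, and the other members (circles) lie on both sides of 0.

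The saturated members fell into classes by channel. Rplp1 and Rplp2, which with Rplp0 form the stalk that recruits elongation factors, and the 40S genes Rps20 and Rps23 were saturated in all 4 channels. Their values, -0.95 and 0.76 for Rplp1, Rplp2 and Rps23 and -0.92 and 0.76 for Rps20, are those of the scanner's limit, and no ratio can be read from them. A probe named Arbp, an older name of Rplp0, gave -0.95 and 0.76 as well. Rpl7a, Rpl37a, Rps7, Rps12, Rps18, Rps21 and Rps27 (7 genes) were saturated in Cy5 on both arrays and in Cy3 on array 2, with array 1 values from -0.93 (Rps27) to -0.14 (Rps21) and array 2 values of 0.75 to 0.76. Because both populations were at the limit on array 2, that array gives no bound on the ratio. On array 1 CD8+CD122+ alone was marked as saturated, and a signal cut off there lowers the ratio. For Rps27, however, the CD8+CD122- spot of array 1 also had 7 of 27 pixels at the limit. Its ratio there has no bound. For the other genes the bound is not strict, because the loess curve was fitted with saturated spots kept. The brightest probe of Rps21, with the highest mean of the family (0.31), gives no reading on array 2, where both populations were at the limit. Another Rps21 probe, saturated in no channel, gave 0.08 on array 1 and 0.36 on array 2. A further 13 members, among them Rps14, Rps16, Rps24, Rpl12 and Rpl13, were saturated in Cy5 on both arrays and not in Cy3.

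With saturated spots left out, 65 of the 79 members could still be measured, 16 of them by another, dimmer probe. These had a median of 0.08 (0.09 on array 1, 0.03 on array 2), and 33 had positive values on each array (50.8%), 5 negative values on each and 27 opposite ones. Among all genes the shares were then 29.2%, 24.1% and 46.7%. The replacement probe of Rps24 is named so for array 1 alone, and Adam28 for array 2 and in RefSeq. It is counted as positive on both arrays (0.08 and 0.08), and its mean is the median of 0.08 given here. Whether it reports Rps24 is therefore uncertain. The limma test again called 0 members (0% of all genes), and 7 were higher and 0 lower at an unadjusted p under 0.05 (2.89% and 3.56% of all genes). The other 14 members had no unsaturated probe that passed the filter on background. They were Rpl12, Rpl27, Rpl30, Rpl37a, Rpl38, Rps4x, Rps7, Rps12, Rps14, Rps16, Rps23, Rps27, Rps27a and Rps29. Of them, 5 are genes of the large and 9 of the small subunit. Rps14 had an unsaturated probe, but it was not well above background. Some replacement probes were dim and disagreed with the rest of the family, such as the second Rplp2 probe (0.03 and -0.72) and the second Rps20 probe (0.06 and 0.58). Their log2 intensities were between 6.10 and 7.36, where the brightest probes of these genes were at the limit; whether they report the same messenger was not tested.

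The 49 members measured without saturation are the base of what follows. Their median was 0.06; 23 had positive values on each array (29.2% of all genes), 5 negative values on each (24.1%) and 21 opposite ones (46.8%). The typical distance between arrays was small, with a median SD of 0.090 against 0.082 over all genes. The 95% interval of limma lay within 1.5-fold of equality for 47 of the 49 members and within 2-fold for 48. The interval was wholly above 0 for 6 members and wholly below 0 for none, without adjustment for the number of genes, the same threshold at which 2.87% of all genes were higher and 3.52% lower.

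**Figure D3:**
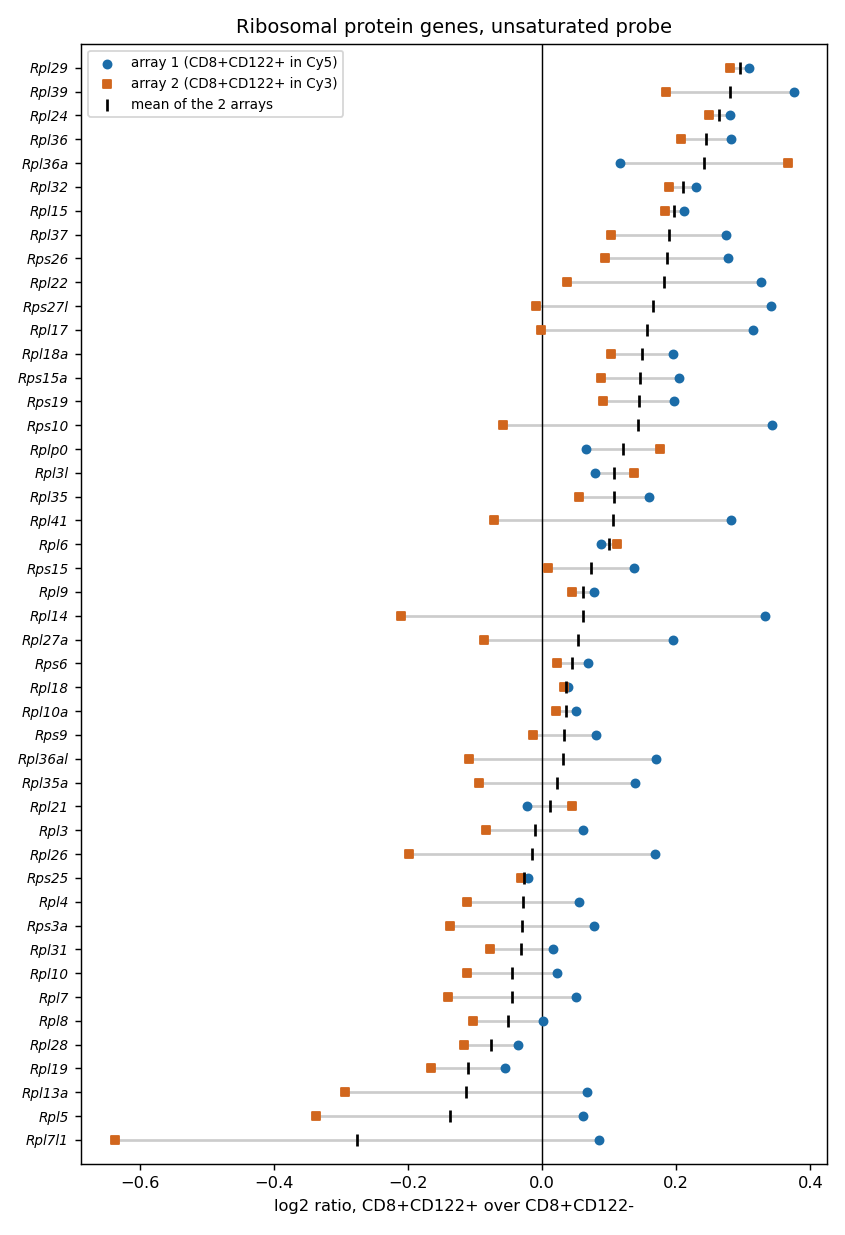
Log2 ratio of CD8+CD122+ over CD8+CD122- for 46 of the 49 members whose brightest probe was saturated in no channel, sorted by the mean of the 2 arrays; circles are array 1, squares array 2 and bars the mean. Rpl29, Rpl39 and Rpl24 head the order with both arrays above 0, and Rpl7l1 stands lowest through array 2 alone.

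The members furthest above 0 on both arrays were proteins of the large subunit. Rpl29, which encodes a small surface protein of the large subunit also known to bind heparin, had log2 intensities of 12.37 in CD8+CD122+ and 12.06 in CD8+CD122- cells on array 1 and of 11.38 and 11.10 on array 2. CD8+CD122+ was higher within each array, while array 1 was brighter than array 2 for both populations, so the levels overlapped across arrays. Its log2 ratio was 0.29 ± 0.020 (SD, n = 2 arrays, here and below; 1.23-fold), with a limma 95% interval of 0.11 to 0.48 and an adjusted p of 0.656. All 4 Rpl29 probes were positive on both arrays, with means from 0.29 to 0.37. With the mean of all probes of a gene in place of the brightest, Rpl29 was the 1 member past 0.322 on each array. Each of these probes carries the name in the file of array 2 alone.

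Rpl24, whose product bridges the subunits, was measured by 2 probes that agreed, at 0.26 and 0.27. The brighter one gave 12.66 against 12.38 on array 1 and 12.14 against 11.90 on array 2, that is 0.26 ± 0.022 (adjusted p of limma 0.681). Rpl39, a very short protein of the exit tunnel, had intensities of 15.58 in CD8+CD122+ and 15.21 in CD8+CD122- cells on array 1 and 15.57 and 15.39 on array 2. Both CD8+CD122+ levels lay above both CD8+CD122- levels. Its ratio was 0.28 ± 0.13 (adjusted p 0.768, limma), but its Cy5 signal on array 1, 61918, was the highest among the members' brightest probes not marked as saturated in that channel.

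Rpl36 (0.28 and 0.21), Rpl32 (0.23 and 0.19) and Rpl15 (0.21 and 0.18), which encode further proteins of the large subunit, had ratios that differed between arrays by 0.07 or less. Rpl36a, whose product lies near the exit site for transfer RNA, gave 0.12 and 0.37, and CD8+CD122+ levels of 14.62 and 14.99 stood above CD8+CD122- levels of 14.50 and 14.62. Rps27a, made as a fusion with ubiquitin, and Rpl11 also ranked among the 8 highest of the same sign, at 0.31 and 0.21 and at 0.02 and 0.43. Both were saturated on array 2 in CD8+CD122- alone, and a signal cut off there raises the ratio. Their values on array 2 are therefore uncertain and may be too high. A second Rpl11 probe gave -0.13 and 0.21. In all, levels of CD8+CD122+ stood wholly above those of CD8+CD122- for 4 of 79 members, among them Rpl39, Rpl36a and Rpl3l, and wholly below for 0, where 9.97% and 10.1% of all genes did.

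**Figure D4:**
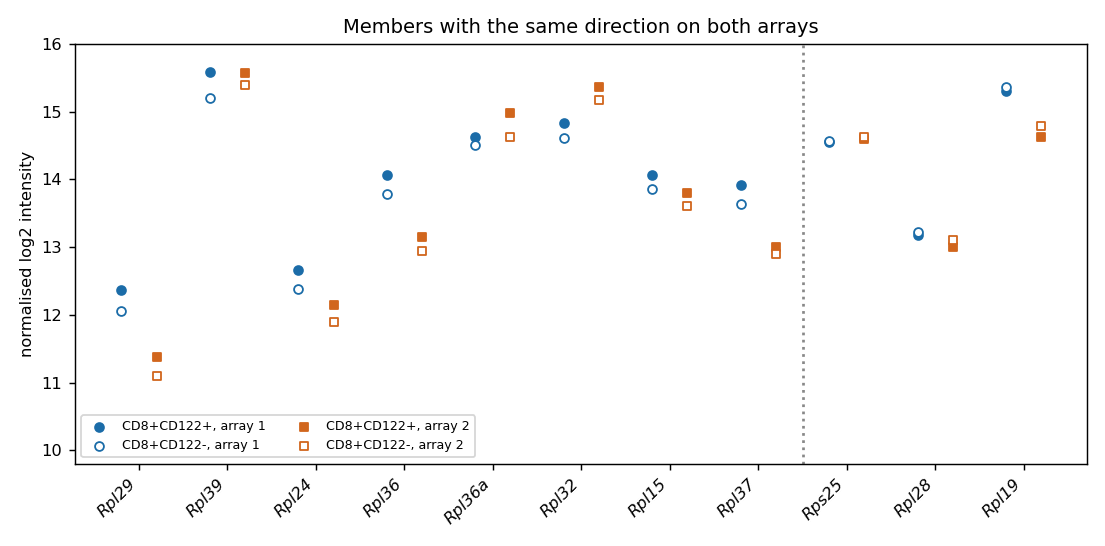
Normalised log2 intensity of 11 members of the same sign on both arrays and without saturation, the 8 highest to the left of the dotted line and 3 negative ones to the right; filled symbols are CD8+CD122+, open symbols CD8+CD122-, circles array 1 and squares array 2. Within each array the filled symbol lies above the open one on the left and below it on the right by small distances, often smaller than the distance between arrays; intensities of different genes come from different probes and are not comparable.

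Of the 5 members negative on both arrays, 3 are described here. Rpl19, which takes part in a bridge between subunits, had intensities of 15.31 in CD8+CD122+ and 15.37 in CD8+CD122- cells on array 1 and 14.62 and 14.79 on array 2. Its brighter probe gave ratios of -0.06 and -0.17 and the other a mean of -0.09. Rpl28 gave -0.04 and -0.12, and Rps25, known for its role in translation from internal entry sites, -0.02 and -0.03. The other Rps25 probe had a mean of 0.07, so its sign is not settled. The next members of the same sign upwards were Rpl10a (0.05 and 0.02), Rpl18 (0.04 and 0.03) and Rps6, given below.

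Several members have known roles outside the ribosome. Rpl5 and Rpl11 bind Mdm2 and thereby stabilise the tumour suppressor p53. Rpl5 gave 0.06 on array 1 and -0.34 on array 2, a mean of -0.14 ± 0.28, and on array 2 its CD8+CD122- spot had 4 of 29 pixels at the scanner's limit. Rpl22, which is needed for the development of alpha beta T cells, gave 0.33 and 0.04, and its other probe a mean of -0.07. Rps6, the substrate of the kinases downstream of mTOR, gave 0.07 and 0.02, with intensities of 14.36 against 14.30 on array 1 and 13.97 against 13.95 on array 2. None of these differed beyond the spread between arrays by limma's test (adjusted p from 0.895 to 0.942).

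In the P stalk, Rplp0 was the member with a reading below the limit on its brightest probe of that name, at 0.07 and 0.18 (0.12 ± 0.079). A probe named Arbp in the file of array 2 gave 0.14 and -0.03 for the same gene. Rplp1 and Rplp2 could be read on dim second probes alone, as given above for Rplp2, and at 0.13 and 0.03 for Rplp1.

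Paralogs were set beside the genes they resemble, each by its own ratio. Rpl7l1, a paralog of Rpl7 that acts in assembly of the large subunit, had the lowest mean of the family, -0.28 ± 0.51, from 0.09 on array 1 and -0.64 on array 2. Its other probe had a mean of -0.07, and Rpl7 gave 0.05 and -0.14. Rps27l, known as a target of p53, gave 0.34 and -0.01, and Rps27 was saturated. Rpl36al, a near copy of Rpl36a, gave 0.17 and -0.11. Rpl3l, a paralog of Rpl3 known from muscle, was close to background, with intensities between 5.98 and 6.14 and not well above background in CD8+CD122- cells on array 1; it gave 0.08 and 0.14, and Rpl3 0.06 and -0.08. Ribosomal protein genes have many processed pseudogenes and near-identical copies, so the share of a gene in its probe's signal is uncertain.

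Other genes of the family stand on the arrays under other names, and 1 of them had a large ratio. Rps4l, a paralog of Rps4x that the files name 1110033J19Rik, was paired with its symbol through that synonym. Its intensities were 8.58 in CD8+CD122+ and 7.33 in CD8+CD122- cells on array 1 and 7.81 and 6.73 on array 2, so the populations did not overlap. The ratio was 1.16 ± 0.12, at least 2-fold on both arrays, although limma did not call it (adjusted p 0.375). Rps4x itself was saturated in Cy5 on both arrays and has no readable ratio. Rpl39l, a paralog of Rpl39 known from testis, gave 0.66 and 0.27, and its adjusted p was 0.766 by limma. Rpsa, the laminin receptor and 40S protein, gave 0.19 and 0.14, Rpl34 0.21 and 0.00045, and Rpl22l1 0.02 and 0.24. These genes were picked out after their values were seen. Fau is made as a fusion of a ribosomal protein with a sequence like ubiquitin, and Rack1 is a scaffold on the small subunit. The brightest probes of Fau and Rack1 were saturated in 2 channels each, with the same order of signs as the saturated members. Readings of any dimmer probes of Fau and Rack1 are not given here.

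Probes of the same gene were compared for 27 members with at least 2 unsaturated probes above background. The means of a gene's probes lay within 0.32 of each other. The gap ran from 0.0015 in Rpl24 to 0.32 in Rpl23a (-0.09 to 0.23). This limit cannot show agreement, because the family itself spans little more. The 49 members without saturation had means from -0.28 to 0.29, with quartiles of -0.03 and 0.16. Most pairs of different members would therefore lie that close too. In 8 of these 27 genes the probes differed in sign, among them Rpl22, Rpl37, Rps19 and Rps25. With saturated spots left out, 21 genes of the small subunit had a median of 0.08 (12 positive, 3 negative, 6 opposite). That median is the value of the Rps24 probe that is also named Adam28. The 37 genes of the large subunit had a median of 0.06 (18 positive, 2 negative, 17 opposite), and the difference was not tested.

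The other genes of ribosome production and its control also had medians near 0. Beside the counts here and in the next paragraph, 29.2% of all genes were positive on both arrays, 24.1% negative and 46.8% opposite. Past 0.322 on each array were 1.56% of all genes upwards and 1.42% downwards. Of 77 mitochondrial ribosomal protein genes, which build the separate ribosome of the organelle, 14 were positive on both arrays, 14 negative and 49 opposite, and the median was -0.04 (0.08 on array 1, -0.18 on array 2). A log2 ratio past 0.322 on each array was reached by 1, Mrpl52 (0.46 and 0.61), followed by Mrps22 (0.09 and 0.48), while Mrps6 (-0.06 and -0.65) and Mrpl53 (-0.20 and -0.41) were lowest. Of 36 translation factors, 7 were positive, 6 negative and 23 opposite, none passed that size, and the median was 0.04. Etf1, the termination factor, had the highest mean at 0.29 (-0.08 and 0.67), before Eif5 (-0.06 and 0.60). Gspt1, the partner of Etf1, had the lowest at -0.24 (-0.02 and -0.45), beside the helicase gene Eif4a2 (-0.30 and -0.17).

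Of 54 genes of ribosome assembly 52 were on the arrays and tested, with a median of -0.01, 16 positive, 9 negative and 27 opposite. Nop58, a core protein of the particles that methylate ribosomal RNA, was the 1 gene past 0.322 on each array (0.36 and 0.58). Riok1, a kinase of late 40S maturation, had the highest mean, 1.17, from 0.321 on array 1, just short of that size, and 2.02 on array 2. The lowest were Taf1c, of the initiation factor for RNA polymerase I (-0.18 and -0.58), and Dkc1, the pseudouridine synthase (0.12 and -0.73). Of 23 genes that control growth and translation, 7 were positive, 8 negative and 8 opposite. Larp1, which binds the pyrimidine tract described above, was the 1 past that size (0.35 and 0.57), which 1.56% of all genes reached upwards. Rps6kb1, a kinase of Rps6, gave 0.05 and 1.27. Rps6ka1 (-0.17 and -0.62) and Mlst8, a subunit of the mTOR complexes (-0.16 and -0.40), were lowest. In these 4 lists limma called 0 genes, with a lowest adjusted p of 0.582, and at an unadjusted p under 0.05 it found 5 mitochondrial genes (4 of them higher in CD8+CD122+ cells), 1 translation factor (lower), 4 assembly genes (all 4 higher) and 3 growth control genes (2 higher), beside the 2.87% of all genes higher and 3.52% lower at that threshold.

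**Figure D5:**
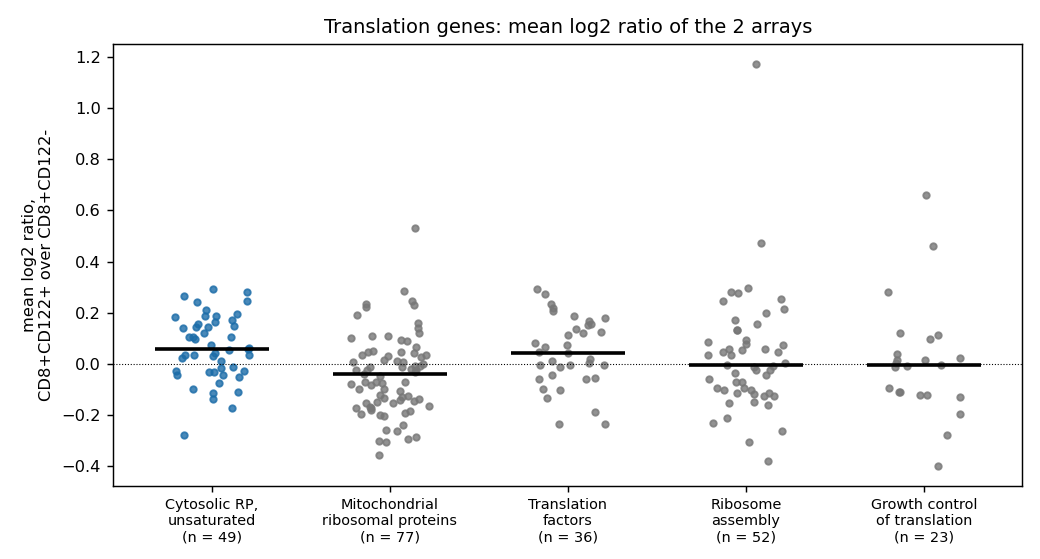
Mean log2 ratio of the 2 arrays for each gene of the 49 unsaturated cytosolic ribosomal protein genes and of 4 lists of related genes (77 mitochondrial ribosomal proteins, 36 translation factors, 52 assembly genes, 23 growth control genes); horizontal bars are medians. All medians lie between -0.04 and 0.06, and the cytosolic genes hold no value beyond 0.31 in size, while single genes of other lists reach 1.17.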

How the data were processed

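Scanner files of 2 arrays were used. Per the file headers they were made with Agilent Feature Extraction A.7.5.1 (array 1) and 8.1.1.1 (array 2) and hold spot and background intensity on a linear scale, flags and pixel numbers per spot, and the log10 ratio of the dyes (Cy5 divided by Cy3). The deposited series table holds these log10 ratios turned to CD8+CD122- over CD8+CD122+, and served as an alternative. Its centring and the genome build are not given in the sources used here.

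From 43790 spots per array (2256 controls), intensities were corrected with normexp (offset 50) and loess, with controls at weight 0 (limma 3.58.1, R 4.3.3). The offset makes the ratios of dim genes smaller. Outlier spots were left out and saturated spots kept. A probe passed if 1 population or both were well above background on each array (30796 probes, 132 of the 136 member probes), and a gene was given by its brightest probe. Symbols came from RefSeq (GRCm38.p6) for 32016 probes (77.8%); the rule itself used the files' names, of which 67 member probes carry one in both files, 65 in the file of array 2 alone and 4 in that of array 1 alone. Levels were made by loess and quantile normalisation of mean intensities between arrays. Genes were fitted with lmFit and eBayes (1 residual degree of freedom) and adjusted over all genes. No dye term was fitted, since 0 residual degrees of freedom would remain. The script was tested on simulated data.

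Named genes were the 8 highest and 8 lowest members of the same sign on both arrays, the 6 with the widest gap among those of opposite sign, the P stalk, Rps6, Rpl22, Rpl11, Rpl5, and the paralogs with their parents. From each other list the 2 highest and 2 lowest were named. The members, lists and rules were chosen with earlier results of these data known. A few genes that meet these rules are counted but not reported by name here.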

Additional observations from a re-analysis of the deposited data

How the results depend on the processing

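The sign of the family's median did not change under the 13 alternatives run, in which it lay between 0.04 and 0.16. With median centring in place of loess it was 0.16, with 10 members positive and 0 negative on both arrays; all genes then had medians of 0.11 on array 1 and -0.12 on array 2, and of 31 named members 11 changed the sign of their mean. With the scanner's processed signals 8 members were negative on both arrays and 1 (Rpl3l) passed a log2 ratio of 0.322 on both arrays; with an offset of 0 these were 1 and 1 (Rpl3l); with the mean of all probes 1 (Rpl29) passed 0.322, and with the deposited value table Rpl3l alone (1). Leaving out saturated spots together with median centring, chosen after seeing the data, gave a median of 0.13 with 2 positive and 0 negative members, and together with a loess curve fitted without ribosomal protein probes, also chosen after seeing the data, 0.084. On 1 array alone (without array 1 or without array 2) the median was 0.061 to 0.10, 48 to 53 members were positive, 26 to 31 negative, and 24 passed 0.322 on either. On array 1, 19 of these were below and 5 above 0, and on array 2, 2 were below and 22 above, the order of signs of the saturated members. Apart from leaving out saturated spots alone, shares over all genes are not given here for these alternatives. The counts therefore cannot be set against all genes. The count called by limma was 0 in each alternative with both arrays. Each array pairs both populations, so the fit on the ratios within arrays is itself paired. The number of arrays and the scanner's limit bound what can be read. No unsaturated probe above background was left for 14 members, and Rpl3l lies near background.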
